A study of Mus musculus with 24 samples.

Results

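DiBASC2 and Di-2-ANEPEQ are a pair of voltage-sensitive dyes, and the comparison described here sets the transcripts of microglia exposed to one against those of microglia exposed to the other. It uses 6 of the 24 libraries of the series, 3 per dye, chosen by their labels alone. Of the 54838 genes in the deposited count table, 13116 passed a low-count filter and were tested. The series exposed SIM-A9 cells, a mouse microglial line, to nanotubes, fluorescent indicators, a viral vector or LPS, in 8 groups of 3 libraries with an untreated Control group. Both dye groups were handled alike: adherent cells in a 48-well plate spent 2 h in 270 uL of serum-free DMEM/F12, 30 uL of a 10x dye sample was added, and RNA was extracted 2 h later. The concentration of either dye is not given in the sources used here, so the readouts are set side by side without matching for dose. The titles spell the dyes DiBASC2 and Di2ANEQPEQ, the treatment field of the DiBASC2 libraries reads Di-BASC0, Di-BASC1 and Di-BASC2 for replicates 1 to 3, and the count table writes DiSBAC2. Nothing in the labels says that replicates were separate cultures, so p-values measure the spread between libraries of a group, which may be technical. That spread was estimated over all 24 libraries of the series, not over the 6 alone.

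DiSBAC2 is the usual abbreviation of an oxonol dye, a negatively charged molecule that moves into a cell and brightens as the membrane depolarises. Di-2-ANEPEQ is a water-soluble styryl dye with a positively charged head that stays in the outer leaflet of the plasma membrane and shifts its spectrum with the electric field. Microglia are the resident macrophages of the brain. They carry Toll-like receptors that act through NF-kB and MAP kinases on chemokine and cytokine genes, purine receptors that sense nucleotides from damaged cells, and potassium, proton and cation channels that set their membrane potential.

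Of 16 microglial markers, 14 were tested; Sall1 held no counts and Gpr34 stayed under the filter. Csf1r, the receptor for the growth factor CSF1, was at 509 ± 3.16 CPM (counts scaled to a common library size; mean ± SD, n = 3) with DiBASC2 and 529 ± 12.1 CPM with Di-2-ANEPEQ. Among the 14, only Trem2, a lipid-sensing receptor, passed the test, with a log2 difference of 0.14 ± 0.042 (adjusted p = 0.0364), a call lost under 6 of 20 alternative settings. Of 28 markers of other brain and blood cells, 3 were tested and none was called, and 19 held at most 3 counts in any of the 6 libraries. The summed counts of those 28 markers ranged from 151 to 186 in the DiBASC2 libraries and from 146 to 175 in the Di-2-ANEPEQ libraries. Mog and Olig2 of oligodendrocytes and Cd3e of T cells held no counts. Total counts ran from 22680902 to 27593552 with DiBASC2, from 23163898 to 29259221 with Di-2-ANEPEQ and from 18176305 to 23155577 in Control. Libraries of the same dye correlated at r from 0.994 to 0.9951 across log2 CPM of genes, and libraries of different dyes at 0.9929 to 0.9943. The count table's column names for a group end in adjacent numbers, and the labels do not say what these record. If they follow an order of handling, its effects and those of the dye cannot be told apart.

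Cells given DiBASC2 held less mRNA of inflammatory chemokines and cytokines, immediate early transcription factors, MAP kinase phosphatases and cholesterol enzymes than cells given Di-2-ANEPEQ. They held more Neat1 RNA and more mRNA of genes known as FOXO targets. Malat1 RNA was higher as well, a call lost under 4 of 20 alternative settings. Of the 13116 genes tested, 1174 (8.95%) passed edgeR's quasi-likelihood test, with a Benjamini-Hochberg adjusted p under 0.05, and are termed called. With DiBASC2, 455 genes (3.47%) were higher and 719 (5.48%) were lower. All log2 differences below are DiBASC2 minus Di-2-ANEPEQ, with their standard error, unless another pair is named. Levels are relative to each library's total, and in bulk RNA fewer cells carrying a transcript and less of it per cell cannot be told apart. Genes were named by a fixed rule, except that Acod1, Ccl2, Ccl9, Csf1, Cyp51, Egr2, Fbxo32, Fosl2, Gdf15, Hmgcs1, Hvcn1, Junb, Kcna3, Kcnn4, Klhl24, Nlrp3, P2rx7, Sesn1, Tnfaip3, Txnip, Rfesd and Zfp759 were named after their values were seen. Some list members mentioned only as called or not called, such as Foxo4, Spred2 and Atp1b3, were also outside the rule.

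The differences were small. The median called gene was 1.23-fold higher or 1.14-fold lower with DiBASC2. Of the called genes, 88 differed at least 1.5-fold and 26 at least 2-fold, 19 of them higher and 7 lower. The 3 DiBASC2 libraries all lay above the 3 Di-2-ANEPEQ libraries for 1711 genes (13%) and all below them for 1968 genes (15%). Of the 1174 called genes, 1137 were without overlap between the dyes. The 10 highest and 10 lowest named genes were taken only from genes without overlap, so their separation adds no support. The split by direction depended on the scaling: with upper-quartile factors, which moved the median of all genes from 0.004 to 0.038, 746 genes were higher and 431 lower. The count also depended on single libraries, falling to 640 without DiBASC2 replicate 1, 759 without replicate 2, 628 without Di-2-ANEPEQ replicate 1 and 702 without its replicate 2.

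**Figure D1:**
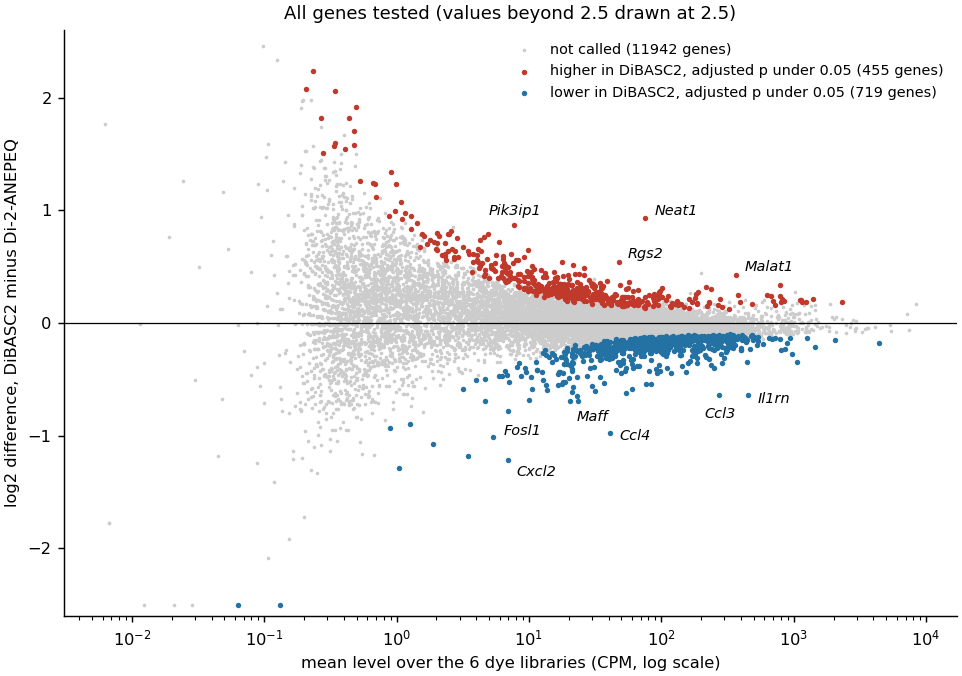
Log2 difference of each of the 13116 tested genes (vertical axis, DiBASC2 minus Di-2-ANEPEQ) against its mean level over the 6 dye libraries in CPM (horizontal log axis), with the 455 higher and 719 lower calls coloured. Below about 1 CPM only large differences were called, and among genes of at least 5 CPM Neat1 stands highest while Cxcl2, Ccl4, Ccl3 and Il1rn lie far below 0.

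The chemokine ligands that draw neutrophils and monocytes were among the genes that fell furthest with DiBASC2. Cxcl2, a neutrophil attractant encoded at chr5:90903871-90905938 on the plus strand of GRCm38, was at 4.95, 3.84 and 3.77 CPM in the DiBASC2 libraries and 11.7, 8.90 and 8.39 CPM in the Di-2-ANEPEQ libraries. The groups did not overlap, and the log2 difference of -1.22 ± 0.13 (adjusted p = 3.41e-08) was the lowest among called genes of at least 5 CPM. Ccl4, which draws monocytes and lies on chr11:83662584-83664683, read 27.8, 28.3 and 27.7 CPM with DiBASC2 against 63.7, 53.1 and 47.1 CPM with Di-2-ANEPEQ. All DiBASC2 libraries were low and nearly equal, and the log2 difference was -0.97 ± 0.099 (adjusted p = 1.57e-08). Ccl3, its neighbour on chr11:83647844-83649355, read 215, 208 and 214 CPM against 367, 315 and 309.7 CPM. Its groups were again apart, with a log2 difference of -0.64 ± 0.066 (adjusted p = 2e-08). Ccl2, which recruits monocytes through CCR2, fell less (-0.39 ± 0.068, adjusted p = 0.000189). Of the 11 chemokine ligands tested, Cxcl2, Ccl2, Ccl3 and Ccl4 passed the test. Ccl9 was at 42.3 ± 0.927 and 37.1 ± 2.78 CPM and did not pass (0.18 ± 0.074, adjusted p = 0.115), and Cxcl1, Cxcl3 and Cxcl5 were under the filter.

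Cytokines of the interleukin 1 family were lower with DiBASC2 together with their antagonist. Il1a, an alarmin, read 8.02, 7.14 and 7.87 CPM with DiBASC2 and 12.8, 13.2 and 10.7 CPM with Di-2-ANEPEQ. Il1b, the secreted form that needs cleavage by an inflammasome, read 6.15, 5.67 and 5.48 CPM against 8.14, 8.54 and 8.18 CPM. Il1rn, which encodes the receptor antagonist, read 344, 363 and 360.4 CPM against 658, 511 and 497 CPM. In all 3 genes every DiBASC2 library was below every Di-2-ANEPEQ library, and the log2 differences were -0.68 ± 0.10, -0.52 ± 0.11 and -0.64 ± 0.077 (adjusted p = 1.32e-05, 0.00193 and 2.87e-07). Nlrp3, the sensor of the inflammasome that cleaves IL-1 beta, differed by -0.54 ± 0.042 (adjusted p = 3.78e-11). Il1a and Il1b each overlap an antisense gene, and whether the counting used strand is not given in the sources used here.

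Tnf, a central macrophage cytokine, was at 22.9, 22.6 and 24 CPM with DiBASC2 and 33.5, 32.2 and 30.2 CPM with Di-2-ANEPEQ, groups that did not overlap (-0.47 ± 0.057, adjusted p = 4.92e-07). Osm, which encodes oncostatin M of the IL-6 family, was at 18.6, 18.5 and 16.7 CPM and 31.02, 29.4 and 26.2 CPM (-0.69 ± 0.067, adjusted p = 7.75e-09). Csf1, the ligand of the CSF1 receptor, fell by less (-0.35 ± 0.043, adjusted p = 4.45e-07). Among the inducible enzymes, Ptgs2, the cyclooxygenase of prostaglandin synthesis, read 24.8, 25.7 and 24.6 CPM against 42, 35.6 and 35.9 CPM (-0.60 ± 0.061, adjusted p = 1.8e-08). Acod1, which makes itaconate, fell by a like amount (-0.54 ± 0.085, adjusted p = 4.22e-05). Nos2 and Ptges did not pass the test. Over the 31 tested members of the inflammatory list, 14 (45.2%, against 5.48% of all genes) were called lower and none higher. The median log2 difference was -0.361, against 0.004 over all genes tested. Il6, Il10, Il12b, Il15, Il23a, Tgfb1, Csf2 and Csf3 were tested and not called. Without replicate 3 of either dye 1 member was called higher.

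**Figure D2:**
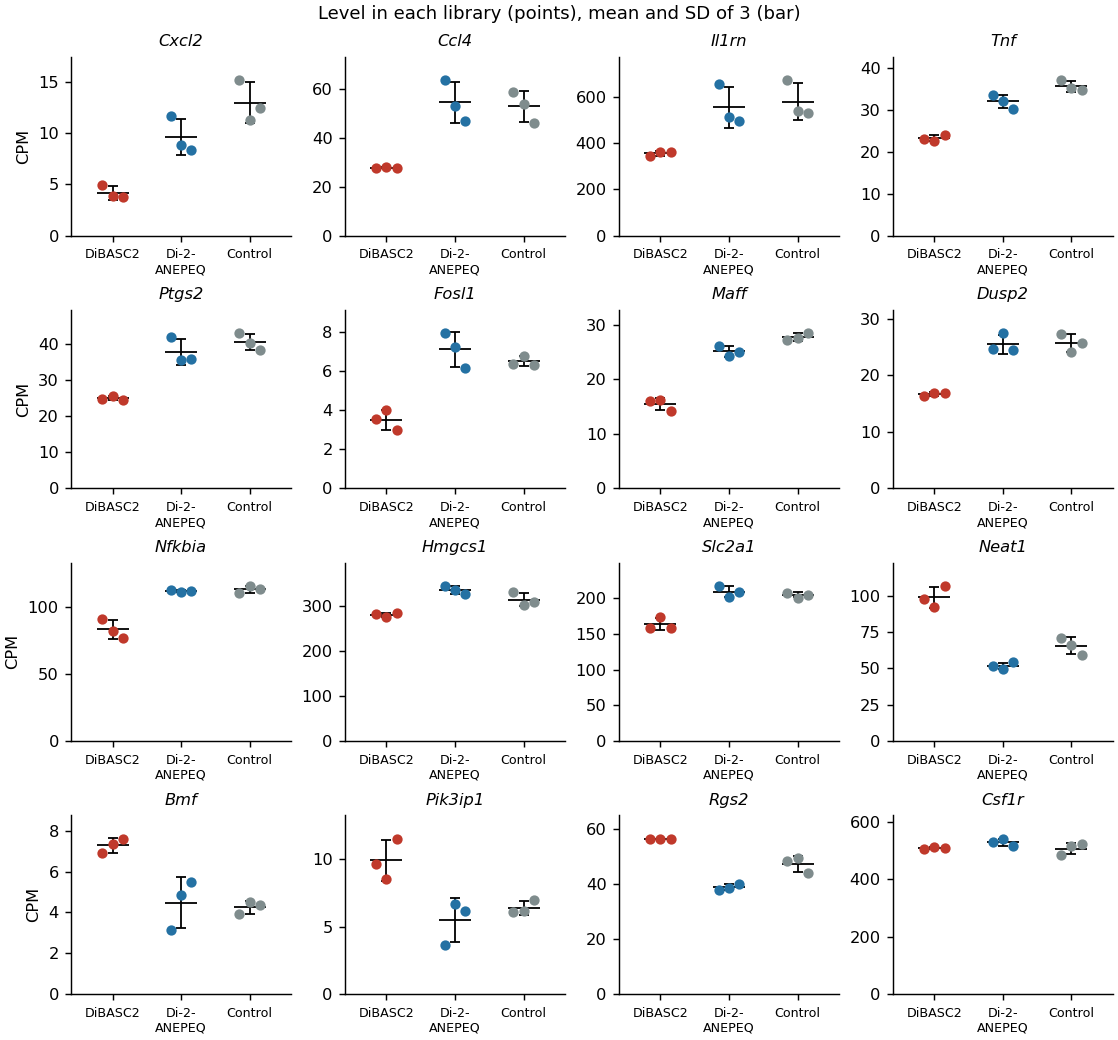
CPM of 16 genes in each library of DiBASC2 (red), Di-2-ANEPEQ (blue) and Control (grey); points are the 3 libraries of a group, horizontal bars the mean and error bars the SD. The red points lie below the blue in the first 11 panels and above them for Neat1, Bmf, Pik3ip1 and Rgs2, while the groups lie close together for Csf1r.

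Many genes of the NF-kB pathway were lower with DiBASC2. NF-kB dimers are held in the cytoplasm by IkB proteins until the IKK kinases mark these for destruction, and several pathway genes are themselves NF-kB targets. Of 26 members tested, 12 (46.2%, against 5.48% of all genes) were called lower and 1 (3.8%, against 3.47%) higher. The median was -0.157. The lower calls were 3 of 5 subunits, 3 of 6 IkB inhibitors, 2 of 5 adaptors and 4 of 6 feedback genes. Without DiBASC2 replicate 1 the higher count was 2. Nfkbia, the IkB alpha inhibitor that NF-kB induces as feedback, read 90.8, 81.6 and 76.6 CPM with DiBASC2 and 112, 111 and 112 CPM with Di-2-ANEPEQ (-0.43 ± 0.048, adjusted p = 1.12e-07). The DiBASC2 libraries were spread over a wider range than the others, yet the groups stayed apart. Ier3, an early response gene, read 45.8, 52.6 and 44.97 CPM against 73.3, 69.4 and 72.7 CPM (-0.58 ± 0.061, adjusted p = 2e-08). Traf1, a signalling adaptor, differed by -0.49 ± 0.075 (adjusted p = 3.24e-05), and Tnfaip3, the ubiquitin-editing inhibitor A20, by -0.34 ± 0.063 (adjusted p = 0.000325). Of the 5 subunits, Rel, Relb and Nfkb2 were called lower, and Rela and Nfkb1 were not called. None of Chuk, Ikbkb, Ikbkg and Ikbke, of the IKK family, was called. Birc2, a ubiquitin ligase of the pathway, was the only member called higher (0.41 ± 0.092, adjusted p = 0.00318).

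Among the 26 Toll-like receptor genes and adaptors, 4 were called lower (15.4%, against 5.48% of all genes) and 2 higher (7.7%, against 3.47%). The median was -0.01. Tlr2, the receptor for bacterial lipoproteins, read 205, 215 and 195 CPM with DiBASC2 and 262, 266 and 241 CPM with Di-2-ANEPEQ, without overlap (-0.32 ± 0.042, adjusted p = 2.17e-06). Irak2, a kinase downstream, fell by a smaller amount (-0.17 ± 0.044, adjusted p = 0.0138). Tlr4, the LPS receptor, was at 43.5 ± 2.14 and 38.2 ± 0.316 CPM (0.19 ± 0.060, adjusted p = 0.0465), and Ly86, an accessory protein of a Toll-like relative, was higher as well (0.17 ± 0.048, adjusted p = 0.0173). The call of Tlr4 was lost under 14 of 20 alternative settings. Myd88, Tirap, Ticam1 and Ticam2, the adaptors, were not called. The lower count was 2 without DiBASC2 replicate 1 or Di-2-ANEPEQ replicate 2 and 1 without Di-2-ANEPEQ replicate 1, and the higher count was 0 or 1 without any single dye or Control library. Irak2 lost its call without DiBASC2 replicate 1 or Di-2-ANEPEQ replicate 1 or 2, and Ly86 without replicate 1 or 2 of either dye.

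The sequences before the starts of 4 of these genes are shown because the genes fell together with DiBASC2 and each stretch holds a match to the kappa-B consensus, the NF-kB binding motif, in capitals. They come from RefSeq on GRCm38.p6, run 5′ to 3′ on the gene's own strand, and end before both the RefSeq and the GENCODE start.
Cxcl2, chr5:90903649-90903870, plus strand: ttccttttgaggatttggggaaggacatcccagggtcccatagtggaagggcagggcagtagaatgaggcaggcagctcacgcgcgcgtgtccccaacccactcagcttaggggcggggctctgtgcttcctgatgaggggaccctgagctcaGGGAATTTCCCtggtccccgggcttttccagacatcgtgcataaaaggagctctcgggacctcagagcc
Nfkbia, chr12:55492648-55492897, minus strand: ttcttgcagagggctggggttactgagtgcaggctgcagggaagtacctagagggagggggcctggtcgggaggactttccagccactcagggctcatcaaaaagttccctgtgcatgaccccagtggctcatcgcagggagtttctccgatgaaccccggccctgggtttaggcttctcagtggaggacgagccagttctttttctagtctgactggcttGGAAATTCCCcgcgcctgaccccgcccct
Ier3, chr17:35821463-35821683, plus strand: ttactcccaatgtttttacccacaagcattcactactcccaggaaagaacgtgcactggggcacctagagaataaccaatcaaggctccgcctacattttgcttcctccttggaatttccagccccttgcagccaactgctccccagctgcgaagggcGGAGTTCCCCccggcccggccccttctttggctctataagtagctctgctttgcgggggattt
Tlr2, chr3:83841768-83841858, minus strand: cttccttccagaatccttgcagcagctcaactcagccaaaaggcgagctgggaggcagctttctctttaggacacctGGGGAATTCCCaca
The capitals in Cxcl2 and in Tlr2 each hold a pair of overlapping matches. Searched on both strands over the 250 bases before each start, the consensus was in 7.25% of all 32851 windows and in 8.90% of the 11971 windows of tested genes. It was in 12% of the 778 windows of genes called lower and 7.51% of the 426 windows of genes called higher. Of the 16 windows of called NF-kB pathway members, 9 (56.2%) held it, and of the 12 windows of called inflammatory genes, 3 (25%). The pathway list was written to include NF-kB targets, and its members that were not called were not counted apart. Its share therefore does not show what sets the called members apart. A match is a description of these letters and not evidence of binding.

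Immediate early genes, which growth factor, calcium and stress signals switch on without new protein synthesis, were lower with DiBASC2. Of 27 tested, 16 (59.3%, against 5.48% of all genes) were called lower and none higher, with a median of -0.251. Fosl1, a FOS-related AP-1 subunit, read 3.56, 4.01 and 2.995 CPM with DiBASC2 and 7.97, 7.25 and 6.18 CPM with Di-2-ANEPEQ. The lowest Di-2-ANEPEQ library was above the highest DiBASC2 library, and the log2 difference was -1.01 ± 0.12 (adjusted p = 2.82e-07). Fosl1 overlaps Ccdc85b on the other strand, and Ccdc85b did not pass the test (-0.039 ± 0.10, adjusted p = 0.86). Fosl2, its close relative, read 41.6, 43.9 and 41.9 CPM against 65.9, 65.7 and 65 CPM. Both groups were tight and far apart (-0.62 ± 0.044, adjusted p = 5.17e-12). Maff, a small MAF partner of AP-1 type factors, read 16.1, 16.2 and 14.2 CPM against 26.2, 24.2 and 24.96 CPM (-0.70 ± 0.072, adjusted p = 2e-08). Junb fell as well (-0.44 ± 0.059, adjusted p = 2.81e-06), whereas Fos, Fosb, Jund and Atf3 were not called.

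The zinc finger factors Egr3 and Egr2 followed the same direction. Egr3 was at 20.5, 15.98 and 17.5 CPM with DiBASC2 and 27.5, 27.8 and 29.7 CPM with Di-2-ANEPEQ (-0.65 ± 0.082, adjusted p = 8.51e-07). Egr2 differed by -0.58 ± 0.081 (adjusted p = 5.82e-06), and Egr1 was under the filter. Nr4a1, Srf, Arc, Ier2 and Ier5 were also called lower. The list was not uniform, as Myc, Klf4 and Klf10 were tested and not called.

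The ERK pathway induces phosphatases and other proteins that dampen it. Of 21 such genes, 10 (47.6%, against 5.48% of all genes) were called lower and none higher (median -0.193). Dusp2, a nuclear MAP kinase phosphatase, read 16.3, 16.9 and 16.9 CPM with DiBASC2 and 24.6, 27.5 and 24.4 CPM with Di-2-ANEPEQ (-0.61 ± 0.062, adjusted p = 1.57e-08). The DiBASC2 libraries lay within a narrow range, all below the Di-2-ANEPEQ libraries. Of 10 MAP kinase phosphatases, 7 were called lower, and Dusp6, Dusp7 and Dusp10 were not called. Plaur, the urokinase receptor, differed by -0.42 ± 0.061 (adjusted p = 1.03e-05). Of the 5 Sprouty and Spred genes tested, Spred2 was called lower. Bcar1, a scaffold of integrin signalling outside the lists, was at 4.54, 4.75 and 6.12 CPM against 8.81, 8.17 and 9.37 CPM (-0.78 ± 0.12, adjusted p = 4.58e-05), among the 10 lowest called genes of at least 5 CPM whose groups did not overlap.

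Genes repressed by growth factor signalling and raised by the FOXO factors when that signalling falls were higher with DiBASC2. Of 16 FOXO and MondoA genes tested, 10 (62.5%, against 3.47% of all genes) were called higher and none lower. The median was 0.309, against 0.004 over all genes. Pik3ip1, an inhibitor of PI3 kinase, read 9.63, 8.55 and 11.5 CPM with DiBASC2 and 3.59, 6.65 and 6.18 CPM with Di-2-ANEPEQ. The groups did not overlap although both were spread, and the log2 difference was 0.87 ± 0.16 (adjusted p = 0.000306). Bmf, a BH3-only protein that promotes cell death, read 6.90, 7.36 and 7.62 CPM against 3.12, 4.85 and 5.49 CPM (0.72 ± 0.14, adjusted p = 0.000871). Fbxo32, a ubiquitin ligase known from muscle atrophy, read 4.95, 6.90 and 5.26 CPM against 3.36, 2.97 and 3.79 CPM (0.77 ± 0.17, adjusted p = 0.00285). Sesn1, a nutrient sensor, and Klhl24 also rose (0.44 ± 0.068 and 0.34 ± 0.066, adjusted p = 3.32e-05 and 0.000677).

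Txnip, a MondoA target that binds thioredoxin and limits glucose uptake, read 235, 235 and 256 CPM with DiBASC2 and 195, 192 and 195 CPM with Di-2-ANEPEQ, with tight and separate groups (0.32 ± 0.038, adjusted p = 2.87e-07). Cdkn1b, the cell cycle inhibitor p27, was higher than with Di-2-ANEPEQ too (0.30 ± 0.074, adjusted p = 0.00743). Its Control mean lay between the dyes and nearer DiBASC2, and neither dye was called against Control for this gene. Foxo4 was called higher and Foxo1 and Foxo3 were not called. Without DiBASC2 replicate 2 the count of called members fell from 10 to 6 and Fbxo32 lost its call (adjusted p = 0.0512), and 1 member was called lower without DiBASC2 replicate 3. Cdkn1b lost its call without Di-2-ANEPEQ replicate 2 (adjusted p = 0.106).

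Cholesterol synthesis genes, which SREBP2 switches on when membrane sterol is low, were lower with DiBASC2. Of 28 tested lipid genes, 17 (60.7%, against 5.48% of all genes) were called lower and 1 (3.6%, against 3.47%) higher. The median was -0.162. Hmgcs1, which makes HMG-CoA at the start of the pathway, read 281, 275 and 284 CPM with DiBASC2 and 344, 335 and 327 CPM with Di-2-ANEPEQ (-0.26 ± 0.037, adjusted p = 8.37e-06). Cyp51, a later demethylase, read 370.0, 372 and 357 CPM against 459, 412 and 426 CPM (-0.24 ± 0.037, adjusted p = 3.24e-05). In both genes every DiBASC2 library was below every Di-2-ANEPEQ library. Mvk, Idi1 and Fdps, other enzymes of the pathway, were not called. Abcg1, a sterol exporter induced by LXR, was the member called higher (0.25 ± 0.062, adjusted p = 0.00639). Its call was lost without Di-2-ANEPEQ replicate 1 (adjusted p = 0.0914). Srebf1, Srebf2 and Scap, the regulators themselves, were not called.

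The stretches before Hmgcs1 and Txnip are shown because each holds a motif linked to its list, and the lists differed in opposite directions. Txnip is listed as a MondoA target, so the FOXO motif before it is that of other members of its list. The stretches were picked for these motifs and do not stand for the other members. In Hmgcs1 the capitals mark the sterol element TCACNCCAC and the CCAAT box, and in Txnip the FOXO motif GTAAACA and the CCAAT box, on either strand. Both stretches are RefSeq sequence on GRCm38.p6, 5′ to 3′ on the gene's strand, and no match overlaps another.
Hmgcs1, chr13:119690101-119690350, plus strand: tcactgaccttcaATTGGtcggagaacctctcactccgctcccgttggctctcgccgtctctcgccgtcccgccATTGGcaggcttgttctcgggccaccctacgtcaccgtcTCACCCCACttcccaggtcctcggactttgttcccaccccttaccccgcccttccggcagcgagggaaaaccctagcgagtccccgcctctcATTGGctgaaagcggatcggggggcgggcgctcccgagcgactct
Txnip, chr3:96557707-96557956, plus strand: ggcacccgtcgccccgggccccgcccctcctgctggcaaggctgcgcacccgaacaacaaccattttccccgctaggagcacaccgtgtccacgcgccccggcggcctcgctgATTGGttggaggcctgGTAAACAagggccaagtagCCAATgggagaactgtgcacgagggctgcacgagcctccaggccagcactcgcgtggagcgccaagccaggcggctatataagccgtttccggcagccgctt
The sterol element TCACCCCAC lies 137 to 129 bases before the Hmgcs1 start, and the FOXO motif lies 121 to 115 bases before the Txnip start. The sterol element was in 1.05% of all windows and in 1 of the 13 windows of called lipid genes. The FOXO motif was in 3.17% of all windows and in 1 of the 12 windows of called FOXO and MondoA genes. The CCAAT box was in 33.8% of all windows, in 10 of the 13 windows of called lipid genes (76.9%) and in 8 of the 12 windows of called FOXO and MondoA genes (66.7%). The last share is counted over windows, of which a gene can have more than 1.

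Genes of glucose entry and glycolysis showed smaller differences. Slc2a1, the GLUT1 glucose transporter, read 159, 174 and 159 CPM with DiBASC2 and 217, 202 and 208 CPM with Di-2-ANEPEQ, without overlap (-0.35 ± 0.039, adjusted p = 7.02e-08). Vegfa, an angiogenic factor and HIF-1 target, was at 42.6 ± 2.46 and 50.5 ± 2.16 CPM (-0.24 ± 0.057, adjusted p = 0.00524). Of 25 tested members, 8 were called lower, a larger share than the 5.48% of all genes, and none higher (median -0.078). That count fell to 3 with upper-quartile factors and to 3 without DiBASC2 replicate 1 or Di-2-ANEPEQ replicate 1 or 2. Gapdh, Pkm and Ldha were not called.

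**Figure D3:**
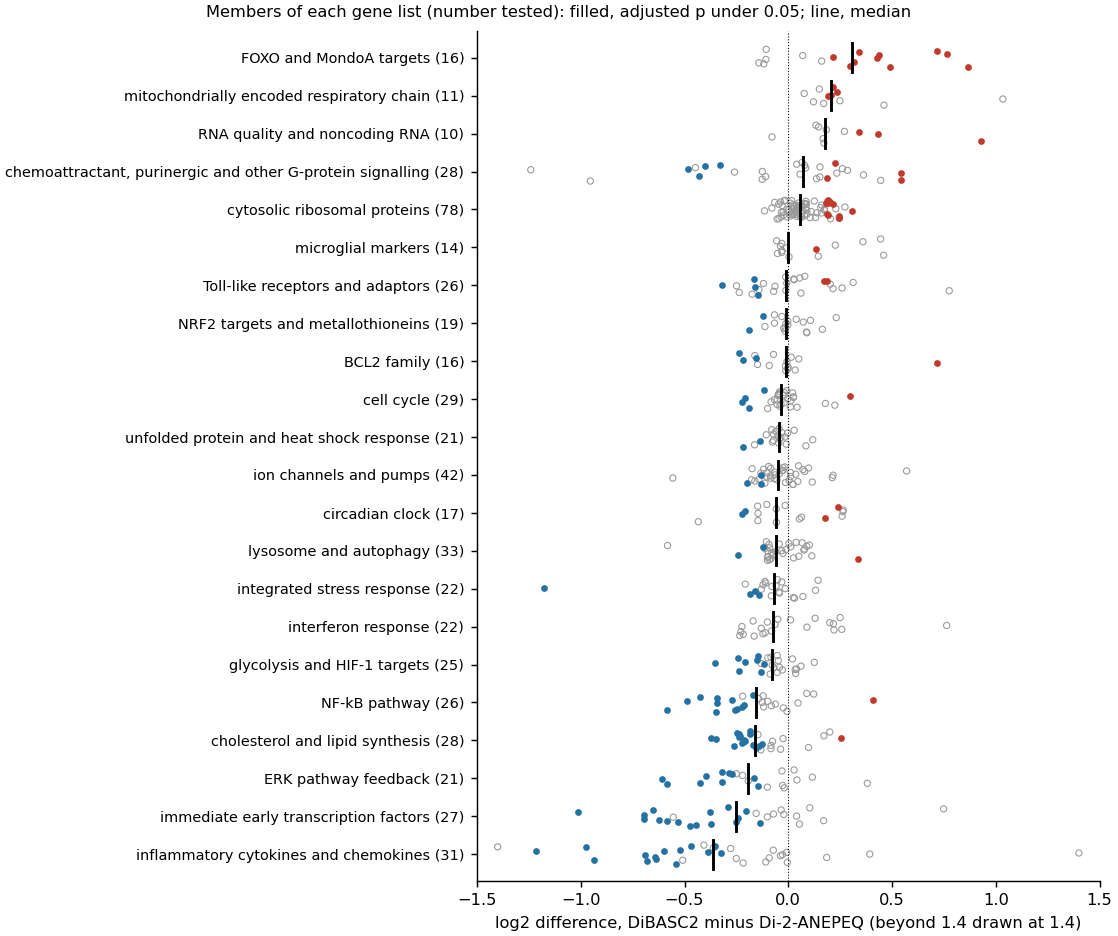
Log2 difference (DiBASC2 minus Di-2-ANEPEQ, horizontal axis) of every tested member of 22 gene lists, with the number tested in brackets; filled points passed the test, open points did not, and the black line is the list's median. Inflammatory genes (median -0.361), immediate early genes (-0.251) and ERK feedback genes (-0.193) lie furthest left, and FOXO and MondoA targets (0.309) furthest right.

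Both dyes report membrane potential. Ion channel and pump genes, some of them of internal membranes, were called lower at about the rate of all genes. Of 42 ion channel and pump genes tested, 3 (7.1%, against 5.48% of all genes) were called lower and none higher, with a median of -0.049. The lower count was 1 without DiBASC2 replicate 2 or Di-2-ANEPEQ replicate 1 and 5 without DiBASC2 replicate 3, and 1 member was called higher in the former pair of fits. Atp2a2, the SERCA2 pump that loads calcium into the endoplasmic reticulum, read 469, 494 and 521 CPM with DiBASC2 and 572, 568 and 562 CPM with Di-2-ANEPEQ (-0.20 ± 0.039, adjusted p = 0.000694). Clic4, a chloride channel family protein, and Atp1b3, a subunit of the sodium pump, were the others. None of the 6 potassium, 10 cation and 8 store-operated or calcium release channel genes tested was called. Kcnn4, the calcium-activated potassium channel of microglia, was at 65.7 ± 1.85 and 65.6 ± 2.06 CPM, a log2 difference of 0.0039 ± 0.045 with a 95% confidence interval from -0.087 to 0.095. Hvcn1, the proton channel, differed by -0.067 ± 0.048 (-0.17 to 0.031), and P2rx7, the ATP-gated cation channel, by 0.071 ± 0.049 (-0.029 to 0.17). The interval of Kcna3, the voltage-gated potassium channel, was wider, from -0.34 to 0.57.

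Of 28 tested genes of G protein signalling, 4 were called higher (14.3%, against 3.47% of all genes) and 4 lower (14.3%, against 5.48%). The 21 receptors held 3 of the higher and all 4 lower calls, and the 7 RGS proteins 1 higher. Rgs2, which shuts off signalling by Gq, read 56.3, 56.4 and 56.4 CPM with DiBASC2 and 37.7, 38.6 and 39.9 CPM with Di-2-ANEPEQ. The DiBASC2 libraries were almost identical and well above the others (0.54 ± 0.059, adjusted p = 4.6e-08). S1pr1, a receptor for sphingosine 1-phosphate, read 21.4, 20.5 and 21.7 CPM against 13.2, 14.3 and 16.3 CPM (0.54 ± 0.076, adjusted p = 5.91e-06). Among the purine receptors, P2ry2, which binds ATP and UTP, was lower (14.6 ± 0.622 and 19.7 ± 0.0630 CPM, -0.43 ± 0.075, adjusted p = 0.000165). Adora2b, an adenosine receptor, was lower too (8.65 ± 0.865 and 12.1 ± 0.207 CPM, -0.48 ± 0.083, adjusted p = 0.000128). P2ry12, a hallmark of resting microglia, was at 2.67 ± 0.510 and 1.96 ± 0.302 CPM and did not pass (0.45 ± 0.21, adjusted p = 0.196). Rgs1 did not pass either (0.15 ± 0.082, adjusted p = 0.259). Without Di-2-ANEPEQ replicate 1 the higher count was 2.

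In the integrated stress response 4 of 22 genes (18.2%, against 5.48% of all genes) were called lower, among them Atf4, its central factor (237 ± 3.64 and 269.9 ± 20 CPM, -0.19 ± 0.044, adjusted p = 0.00534). Gdf15, a secreted stress hormone of that list with under 5 CPM, read 1.76, 2.22 and 2.44 CPM against 5.76, 4.61 and 3.92 CPM. Its groups were well apart (-1.18 ± 0.19, adjusted p = 7.1e-05). Of 21 unfolded protein and heat shock genes, Bag3 and Hyou1 were called lower (9.5%, -0.22 and -0.14), and of 19 NRF2 targets and metallothioneins, Txnrd1 and Sqstm1 (10.5%, -0.19 and -0.12). No gene of the interferon response was called among 22 tested by edgeR's quasi-likelihood test, and 3 had an unadjusted p under 0.05. Of 33 lysosome and autophagy genes, Tfe3, a factor of lysosome biogenesis, and Sqstm1 were called lower and Rubcnl higher (-0.24, -0.12 and 0.34). These shares, 6.1% lower and 3.0% higher, were near those of all genes (5.48% and 3.47%). Most of these counts rested on single libraries. Without Di-2-ANEPEQ replicate 1, 2 integrated stress genes were called and not Atf4 (adjusted p = 0.11), and 1 interferon gene was called lower. Without replicate 1 or 2 of either dye 1 lysosome gene was called lower, and without those of Di-2-ANEPEQ none was called higher. Without DiBASC2 replicate 1 the integrated stress count was again 2. The unfolded protein count was 1 without any dye library other than DiBASC2 replicate 3. The NRF2 count was 1 without any dye library other than Di-2-ANEPEQ replicate 3 and with upper-quartile factors, and Sqstm1 lost its call under the same 6 settings (adjusted p up to 0.187).

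In the BCL2 family, 3 of 16 genes (18.8%, against 5.48% of all genes) were called lower and Bmf (6.2%, against 3.47%) higher. Bcl2l1, the survival protein BCL-XL, differed by -0.24 ± 0.058 and Bcl2l11, the BH3-only protein BIM, by -0.22 ± 0.055 (adjusted p = 0.00729 and 0.00984). Of 29 cell cycle genes, 4 (13.8%) were called lower and 1 (3.4%) higher. The lower calls were led by Ccnd2, a G1 cyclin, at -0.22 ± 0.036 (adjusted p = 7.1e-05), and Ccne1 at -0.21 ± 0.053 (adjusted p = 0.00915). None of the 11 genes of G2 and M was called. In the circadian clock list Per1 and Bhlhe40 were lower (-0.22 and -0.21) and Nr1d2 and Bhlhe41 higher (0.24 and 0.17), out of 17 tested. Each direction held 11.8% of them. These counts rested on single libraries too. Without DiBASC2 replicate 1, 1 BCL2 gene, 2 cell cycle genes and no clock gene were called lower, and Bcl2l1 and Bcl2l11 lost their calls (adjusted p = 0.0765 and 0.0716). Without Di-2-ANEPEQ replicate 1, Bcl2l1 also lost its call (adjusted p = 0.137) and 2 cell cycle genes were called lower. No clock gene was called higher without Di-2-ANEPEQ replicate 1 or 2, and no cell cycle gene without its replicate 2. Ccne1 lost its call without DiBASC2 replicate 2 (adjusted p = 0.109).

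The gene furthest up among those of at least 5 CPM was Neat1, the long noncoding RNA that builds nuclear paraspeckles. It lies at chr19:5824708-5845478 on the minus strand and read 98.02, 92.2 and 107 CPM with DiBASC2 and 51.8, 49.8 and 54.1 CPM with Di-2-ANEPEQ. The lowest DiBASC2 library was far above the highest Di-2-ANEPEQ library (0.93 ± 0.075, adjusted p = 9.71e-11). Malat1, a nuclear speckle RNA encoded nearby at chr19:5795690-5802672, read 494, 369.6 and 389.6 CPM against 301, 332 and 297 CPM. DiBASC2 replicate 1 stood above the others of its group (0.43 ± 0.13, adjusted p = 0.0285), and the call of Malat1 was lost under 4 of 20 alternative settings, among them the fit without DiBASC2 replicate 1 (adjusted p = 0.239). The remaining genes of the top 10 were Zfp398, Zfp316 and Zfp994, which encode zinc finger proteins, Zdhhc1, a palmitoyltransferase family member, Fam214a, Platr25 and 2810402E24Rik. Their log2 differences were 0.60, 0.56, 0.57, 0.58, 0.61, 0.65 and 0.61. Zfp398 lost its call without Di-2-ANEPEQ replicate 2 (adjusted p = 0.1). The gene 2810402E24Rik is antisense to Usp54 and Pik3ip1 overlaps Gm12592, so their reads cannot be told apart from those of their partners without the strand setting.

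Signs of RNA composition moved with the dye. Mitochondrially encoded genes took 1.59% to 1.78% of counts in the DiBASC2 libraries, 1.42% to 1.55% in the Di-2-ANEPEQ libraries and 1.54% to 1.72% in Control. Of 11 respiratory chain genes encoded there, 4 (36.4%, against 3.47% of all genes) were called higher with DiBASC2. Among them were mt-Nd2 (845 ± 84.7 and 718 ± 43.1 CPM, 0.24 ± 0.061, adjusted p = 0.0115) and mt-Nd4 (0.22 ± 0.059, adjusted p = 0.0167). The count was 1 without DiBASC2 replicate 1 or Di-2-ANEPEQ replicate 2. None of the 11 was called once trends with gene length and GC content were removed. Cytosolic ribosomal protein genes took 7.06% to 7.44% of counts with DiBASC2, 6.71% to 6.998% with Di-2-ANEPEQ and 7.29% to 7.72% in Control. Of these, 10 of 78 (12.8%, against 3.47% of all genes) were called higher and none lower (median 0.057), led by Rps27l at 0.31 ± 0.064 (adjusted p = 0.00152) and Rps27 at 0.24 ± 0.073 (adjusted p = 0.0285). That count was 1, 3 and 18 without DiBASC2 replicate 1, 2 and 3, 6, 2 and 2 without Di-2-ANEPEQ replicate 1, 2 and 3, 4 with DESeq2 and 19 with upper-quartile factors. Rps27 lost its call without DiBASC2 replicate 1 (adjusted p = 0.264) or Di-2-ANEPEQ replicate 2 or 3. What part these shares have in the other differences was not tested.

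The 3 Control libraries, which entered the fit and its estimate of spread but not the means contrasted, give the level without dye. Against Control, 239 genes (1.82%) were called higher and 478 (3.64%) lower with DiBASC2, and 90 (0.686%) higher and 314 (2.39%) lower with Di-2-ANEPEQ. Both comparisons share the Control libraries. Of the 719 genes lower with DiBASC2 than with Di-2-ANEPEQ, the Control mean was nearer Di-2-ANEPEQ for 512 (71.2%), against 50.2% of all genes tested. Their median log2 difference from Control was -0.133 with DiBASC2 and 0.062 with Di-2-ANEPEQ. Of the 455 higher genes, Control was nearer Di-2-ANEPEQ for 240 (52.7%), with medians of 0.184 and -0.152.

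Of the 31 inflammatory genes tested, 14 were called against Control with DiBASC2 and 3 with Di-2-ANEPEQ. Of the 27 immediate early genes, 17 were called with DiBASC2 and 1 with Di-2-ANEPEQ. Other lists had more calls with Di-2-ANEPEQ: 23 of 78 cytosolic ribosomal protein genes against 4 with DiBASC2, and 5 of 25 glycolysis and HIF-1 genes against 3. These list counts take both directions together. Over all 13116 genes tested, 717 were called against Control with DiBASC2 and 404 with Di-2-ANEPEQ. Whether the dyes differ is tested by the contrast between them above, not by counts of calls against Control. Ccl3 was at 358, 332 and 310.2 CPM in Control, a log2 difference of -0.65 for DiBASC2 (adjusted p = 1.37e-08) and -0.011 for Di-2-ANEPEQ (adjusted p = 0.959). Fosl1 was at 6.37, 6.81 and 6.35 CPM, with -0.88 for DiBASC2 (adjusted p = 1.26e-05) and 0.14 for Di-2-ANEPEQ (adjusted p = 0.602). Cxcl2 was at 15.2, 11.3 and 12.5 CPM and was called lower with both dyes, at -1.62 with DiBASC2 (adjusted p = 1.73e-10) and -0.40 with Di-2-ANEPEQ (adjusted p = 0.0335). Ccl2 was likewise called lower with both (-0.72 and -0.33, adjusted p = 2.87e-09 and 0.00324). The calls with Di-2-ANEPEQ were the less stable: Cxcl2 lost its call when Di-2-ANEPEQ replicate 2 or 3, or replicate 1 or 3 of Control, was left out (adjusted p from 0.0842 to 0.297), and Ccl2 without Control replicate 1 (adjusted p = 0.0578).

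Genes higher with DiBASC2 differed in where Control lay. Bmf, at 3.90, 4.51 and 4.38 CPM in Control, differed by 0.77 with DiBASC2 (adjusted p = 0.000976) and by 0.050 with Di-2-ANEPEQ (adjusted p = 0.917). Neat1, at 71.2, 65.8 and 59.5 CPM in Control, was called in opposite directions, 0.59 with DiBASC2 (adjusted p = 1.02e-06) and -0.34 with Di-2-ANEPEQ (adjusted p = 0.0116). Rgs2 was split the same way (0.25 and -0.29, adjusted p = 0.00601 and 0.00507). Zfp994 and Txnip were called lower with Di-2-ANEPEQ (-0.50 and -0.21, adjusted p = 0.0229 and 0.000974) and did not pass with DiBASC2 (0.070 and 0.11). Rps27 was called lower with Di-2-ANEPEQ (-0.42, adjusted p = 0.000696) and was at -0.18 with DiBASC2 (adjusted p = 0.17). Gt(ROSA)26Sor, a long noncoding RNA, was called lower than Control with both dyes (-0.49 and -0.65, adjusted p = 0.00124 and 0.00016) and did not pass between them (0.15 ± 0.10, adjusted p = 0.369). Ccdc85b was called higher than Control with both (0.39 and 0.43, adjusted p = 0.0345 and 0.027). Selenbp1 was called higher with Di-2-ANEPEQ (0.46, adjusted p = 0.0359), and between the dyes it did not pass (-0.32 ± 0.12, adjusted p = 0.0899). Several of these calls rested on single libraries. With Di-2-ANEPEQ, Neat1 lost its call without Control replicate 1 (adjusted p = 0.124) or Di-2-ANEPEQ replicate 2 (adjusted p = 0.0833), and with DiBASC2, Rgs2 lost its call without Control replicate 3 (adjusted p = 0.0649). With DiBASC2, Txnip passed as higher without Control replicate 3 (adjusted p = 0.0425) and Rps27 as lower without DiBASC2 replicate 1 (adjusted p = 0.0407). The calls of Ccdc85b with both dyes, and of Selenbp1 and Zfp994 with Di-2-ANEPEQ, were each lost without any of 4 or 5 single libraries (adjusted p up to 0.184, 0.187 and 0.152).

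**Figure D4:**
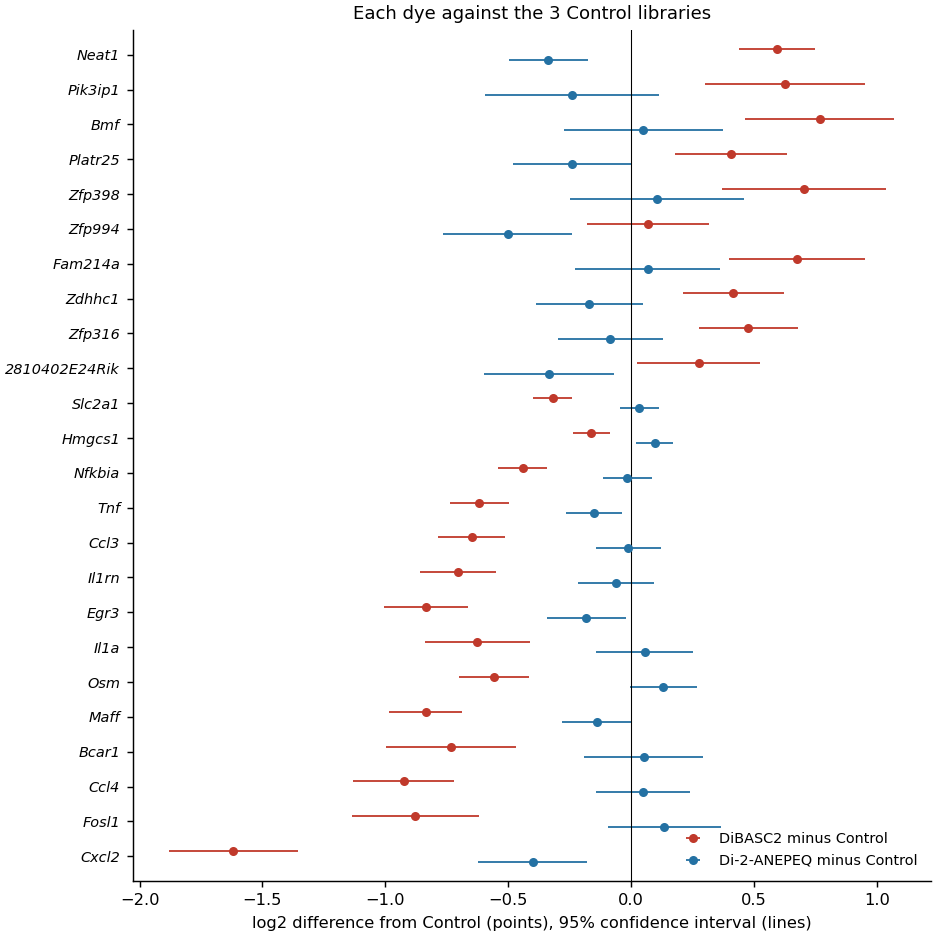
Log2 difference from Control of 24 genes with DiBASC2 (red) and Di-2-ANEPEQ (blue); points are estimates over 3 libraries per group and lines 95% confidence intervals, and both dyes share the Control libraries. For the 14 genes from Cxcl2 to Slc2a1 the DiBASC2 points lie left of 0, and the Di-2-ANEPEQ points lie between -0.18 (Egr3) and 0.14 (Fosl1), except Cxcl2 at -0.40.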

How the data were processed

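Poly-A RNA of SIM-A9 cells was sequenced, and the authors deposited raw counts of reads per gene as 1 table, in which each of the 24 libraries has a column. Per the submitters' processing notes, STAR 2.5.4b and the genome build GRCm38.p6 were used. The counting tool, strand setting and annotation release are not given in the sources used here. Sample titles gave the groups and replicate numbers, and every column was matched to a sample by name. Of the 54838 gene identifiers, 54809 matched GENCODE M21 on GRCm38, which gave symbols and positions.

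The analysis used edgeR 4.0.16 in R 4.3.3. The default filterByExpr over all 24 libraries left 13116 genes, and library sizes were scaled with TMM factors. At the edge of the filter, A430110L20Rik, just kept, had a third-highest level of 0.419 CPM over the 24 libraries, and Gm2451, just left out, 0.414 CPM. A quasi-likelihood fit (glmQLFit) of 1 mean for each of the 8 groups used all 24 libraries and left 16 residual degrees of freedom; contrasts were tested two-sided with glmQLFTest. Adjusted p-values are Benjamini-Hochberg over all tested genes. A standard error is the absolute log2 difference divided by the square root of F, and intervals are 95% intervals of the moderated t distribution. CPM were computed from the deposited counts with the TMM factors. The biological coefficient of variation was 4.12%. The 6 pairs of replicates within a dye differed by more than sampling noise (chi-square per degree of freedom 2.67 to 14.8), so each was counted. The procedure was tested on simulated data.

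The rule named the 10 highest and 10 lowest log2 differences among called genes averaging 5 CPM or more in the 6 dye libraries, without overlap between the dyes. It added the 2 highest and 2 lowest called members of each list at that level, with or without overlap. It also took Tnf, Il1b, Cxcl2, Ccl3, Ccl4, Nfkbia, Ptgs2, Bmf, Zfp398, Selenbp1, Ccdc85b, Rgs1, Gt(ROSA)26Sor and the microglial markers, whatever their values. Some genes that the rule names are not reported here. Promoter windows came from RefSeq on GRCm38.p6, and 57 of the 84 genes named by this rule had one. The motifs searched were kappa-B, AP-1 (TGANTCA), the cAMP response element (TGACGTCA), the CArG box, FOXO (GTAAACA), the E-box (CACGTG), the sterol element (TCACNCCAC) and CCAAT. The comparison and the gene lists were chosen with earlier results of these data known. The alternatives were other scaling factors, other filters, the replicate number as a block, fits of fewer libraries, DESeq2 1.42.0, removal of length and GC trends, and leaving out each dye and Control library.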

Additional observations from a re-analysis of the deposited data

How the results depend on the processing

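The main count of 1174 called genes (455 higher, 719 lower with DiBASC2) was within 1.5 times under every other setting except those named here. Upper-quartile factors gave 746 higher and 431 lower, or 63.4% higher against 38.8%, with all 455 higher calls among them. Leaving out 1 library at a time, Control included, gave 628 to 1338 called genes, 214 to 488 higher and 414 to 850 lower. The counts were 640 and 759 without DiBASC2 replicate 1 or 2, and 628 and 702 without Di-2-ANEPEQ replicate 1 or 2; without DiBASC2 replicate 3 there were 1338. DESeq2 called 1293 genes and a fit of the 6 dye libraries alone 1269. With length and GC trends removed 1349 genes were called, which kept 378 of the higher and 549 of the lower calls, and none of the 4 mitochondrially encoded respiratory chain calls remained. No pairing by replicate number was seen: deviations of same-numbered libraries correlated at -0.036, 0.016 and 0.041, and 1 of 3 correlated best with its own number. These correlations cannot show whether same-numbered libraries were handled together. With the replicate block 1110 genes were called (432 higher, 678 lower), and 1275 with length and GC trends removed as well. Of the 67 called genes named by rule, 43 kept their call under all 20 alternatives, 24 lost it under at least 1, and none reversed; Selenbp1 and Tyrobp, not called, passed under some. Length and GC removal used 13103 genes and was planned like the others. Levels under about 1 CPM limit what could be called, since differences there had to be large.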

Other observations

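Zinc finger genes and noncoding genes were grouped after their values were seen, so their counts are descriptions. Of 313 tested protein-coding genes with a Zfp symbol, most of them encoding zinc finger proteins, 42 (13.4%) were called higher with DiBASC2 and 4 (1.28%) lower. The median log2 difference was 0.152, against -0.005 over the 11154 protein-coding genes, of which 402 (3.6%) were higher and 712 (6.38%) lower. Zfp759 read 5.77, 5.21 and 5.13 CPM with DiBASC2, 3.36, 3.17 and 3.11 CPM with Di-2-ANEPEQ and 4.84, 4.64 and 4.81 CPM in Control, with a log2 difference between the dyes of 0.74 ± 0.13 (adjusted p = 0.000244). The Di-2-ANEPEQ libraries were the low group, below every library of both others. Rfesd, which encodes a protein with a Rieske iron-sulfur domain, showed the same order, at 7.08, 5.03 and 6.55 CPM, 3.66, 3.53 and 3.54 CPM and 5.60, 5.66 and 5.66 CPM (0.79 ± 0.15, adjusted p = 0.000661).

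Of 1301 tested long noncoding genes, 47 (3.61%, against 3.47% of all genes) were called higher with DiBASC2 and 4 (0.307%, against 5.48%) lower, with a median log2 difference of 0.202. Their median level was 0.79 CPM, against 35.65 CPM for protein-coding genes. Noncoding genes took 1.294% to 2.297% of counts in the DiBASC2 libraries, 1.287% to 1.709% in the Di-2-ANEPEQ libraries and 1.356% to 1.833% in Control, so the groups overlapped. Without Neat1, Malat1, Gm42418 and Gm26917, noncoding genes took 0.639% to 0.668% of counts in the DiBASC2 libraries, 0.593% to 0.607% in the Di-2-ANEPEQ libraries and 0.631% to 0.635% in Control. With those 4 genes left out, a choice made after their values were seen, the DiBASC2 libraries lay above both other groups.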
